A study of Mus musculus with 6 samples.

Results

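The genes that make cholesterol and fatty acids were followed in a mouse podocyte line held in high glucose (HG) with or without fibroblast growth factor 1 (FGF1). A list of 40 gene symbols was looked up in the table of 24469 loci, and every symbol had 1 row. The list holds 5 regulators (Srebf1, Srebf2, Scap, Insig1 and Insig2), 7 mevalonate pathway genes, 11 genes of the sterol branch, the sterol carrier Stard4, 4 fatty acid synthesis genes, 7 desaturases and elongases, and 5 liver X receptor (LXR) receptors and targets. All 40 were above 0 in all 6 libraries, and 36 of them had a mean of at least 1 FPKM (fragments per kilobase of exon scaled to the mapped total), the level that 10562 loci reached and above which genes were tested.

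MPCs are a conditionally immortalized podocyte line, differentiated for 10 days without interferon gamma, so all samples come from 1 line and not from animals. The cells of every sample were starved for 12 h without serum and kept in 25 mM glucose for 12 h. The 3 groups, of 2 libraries each, were HG with no FGF1, HG after 1 h of pretreatment with 100 ng/mL recombinant wild-type FGF1 (rFGF1WT), and HG after the same pretreatment with rFGF1ΔHBS, a variant with substitutions that weaken its binding to heparan sulfate. Cells in normal glucose or mannitol were not analysed here, so each comparison is of cells with and without FGF1 in HG and says nothing of HG itself. The labels do not say whether the replicates were separate cultures, so the p-values measure the spread between these libraries, which may be technical. In RNA from whole cultures, fewer cells of a type and less RNA per cell cannot be told apart.

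Cells obtain cholesterol by uptake or by synthesis from acetyl-CoA, through mevalonate, farnesyl diphosphate, squalene and lanosterol. Fatty acids are built from the same precursor by acetyl-CoA carboxylase and fatty acid synthase, and are then lengthened by elongases and given double bonds by desaturases. Both routes are controlled by the sterol regulatory element-binding proteins (SREBPs, encoded by Srebf1 and Srebf2). These membrane-bound factors are carried by SCAP to the Golgi, where they are cleaved when sterols are low, and INSIG proteins hold them back when sterols are high. SREBP activity thus depends on protein cleavage, which mRNA levels do not show. LXRs respond to oxidized sterols and raise the genes of cholesterol export. Podocytes rely on cholesterol-rich membrane domains at the slit diaphragm, the cell junction that filters plasma.

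SREBPs work at short sterol regulatory elements, usually beside boxes bound by NF-Y and Sp1, and the promoters of the genes were therefore read. RefSeq promoters (GRCm38.p6, 250 bases before to 50 after each start) were found for 32 of the 40 genes, and not for Stard4, Fdps, Fdft1, Abcg1, Scd2, Sqle, Scd1 and Fads1. The 150 bases before the start are shown for the 6 genes that passed the test against HG with both proteins (below) and had an entry, 5′ to 3′ on the gene's strand. Capitals mark the NF-Y box (CCAAT, or its reverse complement) and, in Hmgcs1, also the sterol element core found by a search for TCACNCCAC.
Hmgcs1: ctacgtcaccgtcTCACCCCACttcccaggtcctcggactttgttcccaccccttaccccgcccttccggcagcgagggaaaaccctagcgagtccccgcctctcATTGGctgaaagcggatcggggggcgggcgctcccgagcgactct
Mvk: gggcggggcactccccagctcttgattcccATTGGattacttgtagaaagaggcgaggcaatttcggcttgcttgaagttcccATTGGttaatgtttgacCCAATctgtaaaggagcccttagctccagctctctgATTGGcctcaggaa
Idi1: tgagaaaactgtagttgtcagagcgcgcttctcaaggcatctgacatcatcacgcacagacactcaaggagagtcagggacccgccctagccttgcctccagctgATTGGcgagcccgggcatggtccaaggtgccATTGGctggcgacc
Nsdhl: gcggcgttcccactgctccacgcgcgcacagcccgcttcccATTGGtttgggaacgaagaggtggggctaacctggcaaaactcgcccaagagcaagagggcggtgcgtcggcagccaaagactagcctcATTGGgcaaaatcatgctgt
Hsd17b7: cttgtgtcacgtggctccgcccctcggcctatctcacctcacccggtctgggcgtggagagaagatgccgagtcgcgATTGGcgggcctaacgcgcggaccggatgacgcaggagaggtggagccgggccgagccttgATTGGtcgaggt
Fasn: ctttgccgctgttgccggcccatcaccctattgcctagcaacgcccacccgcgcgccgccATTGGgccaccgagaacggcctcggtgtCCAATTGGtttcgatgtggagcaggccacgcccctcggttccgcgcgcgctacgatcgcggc

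These stretches lie at chr13:119690201-119690350 (plus strand, Hmgcs1), chr5:114444119-114444268 (plus, Mvk), chr13:8885456-8885605 (plus, Idi1), chrX:72918371-72918520 (plus, Nsdhl), chr1:169969206-169969355 (minus, Hsd17b7) and chr11:120824548-120824697 (minus, Fasn). The NF-Y box was present once in the Hmgcs1 stretch, 2 times in Idi1, Nsdhl and Hsd17b7, 3 times in Fasn, where a pair of them overlap, and 4 times in Mvk. Across the 32 genes with a promoter, 24 (75%) had a NF-Y box on either strand of at least 1 of their promoters, against 41.1% of the 27025 genes that have promoters in RefSeq. The Sp1 box GGGCGG was also present in 24 (75%), against 38.2% of all genes. The E-box CACGTG, another sequence that SREBPs can bind, was present in 7 (21.9%, against 8.09%), and the nuclear receptor motif AGGTCA in 7 (21.9%, against 18.1%). TCACNCCAC was present in Hmgcs1 alone (3.12%, against 1.44%), at position -137 relative to the start. A match is a description of letters, and of 131 matches 2 pairs of different motifs overlapped. The shares over all genes include genes below 1 FPKM here, and shares over expressed genes alone were not taken.

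Genomic positions follow the GENCODE M21 annotation of GRCm38, whose gene starts can differ from the RefSeq starts used above. The stretches shown for Idi1 and Hsd17b7 thus lie partly inside the GENCODE gene. Hmgcs1 lies at chr13:119690379-119708260, plus strand, Mvk at chr5:114444269-114460591, plus strand, Mvd at chr8:122433601-122443422, minus strand and Idi1 at chr13:8885501-8892451, plus strand. Sqle lies at chr15:59315077-59331192, plus strand, Nsdhl at chrX:72918557-72958514, plus strand and Hsd17b7 at chr1:169949535-169969241, minus strand. Fasn lies at chr11:120805846-120824547, minus strand and Scd2 at chr19:44293674-44306864, plus strand. FPKM cover the exons of the whole locus, so no value belongs to one exon or UTR. The rows of Fdps, Tm7sf2 and Nr1h3 are merged with overlapping neighbours (Gm43738 and Rusc1, Vps51 with Gm28374 and Zfpl1, and Gm13783), so their values may hold fragments of those genes, and fragments of the close paralogs Scd1 and Scd2 could be divided between them.

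The depth of the libraries is unknown, because the table gives FPKM and no counts. The summed FPKM per library were 179594 to 185168. Pearson's r of log2(FPKM + 1) across tested loci ran from 0.916 to 0.923 for the 3 replicate pairs and from 0.895 to 0.924 for pairs across groups, ranges that overlap. Etv5, a transcription factor gene induced by FGF signalling, was 0.486 and 0.578 FPKM in HG, 7.72 and 8.31 with rFGF1WT, and 8.23 and 8.42 with rFGF1ΔHBS, with no overlap between HG and the FGF1 libraries. Of 9 FGF-ERK response genes 4 rose with rFGF1WT and 3 with rFGF1ΔHBS (against 3.26% and 3.37% of all loci). Of these, Etv4, Etv5 and Spry4 were below 1 FPKM in HG and reached the filter only through the FGF1 libraries, so their passing is no independent support. Of the podocyte markers, 6 averaged at least 1 FPKM, among them Synpo, Podxl, Cd2ap, Actn4 and Kirrel. The defining marker Wt1 (0.0104 to 0.0731 FPKM) was near 0 and Nphs1 was at 0.618 to 0.942 FPKM.

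The sum over the 12 podocyte markers with a row was 180 to 185 FPKM in HG, 231 to 234 with rFGF1WT and 213 to 225 with rFGF1ΔHBS. Of 5 proximal tubule markers with a row, Lrp2 and Aqp1 averaged at least 1 FPKM, with Cubn, Slc5a2 and Hnf4a below it, and their sum was 62.1 to 73.8 FPKM in HG, 44.4 to 47.9 with rFGF1WT and 40.8 to 50.1 with rFGF1ΔHBS. Of 6 macrophage markers Cd68 and Csf1r were above 1 FPKM, with the defining markers Ptprc, Adgre1 and Itgam near 0, and the sums were 60.9 to 62.8, 66.8 to 69.6 and 71.1 to 71.1 FPKM. Endothelial markers (6, none at 1 FPKM) summed to 0.297 to 0.737 FPKM over all libraries, and adipocyte and hepatocyte markers (6 of 7 in the table, 1 above 1 FPKM) to 0.977 to 1.33 FPKM. The podocyte and macrophage sums were higher and the proximal tubule sum lower in the FGF1 libraries than in HG, but single markers went both ways. Cd68 rose, with log2 fold changes of 0.32 (adjusted p = 0.0496) with rFGF1WT and 0.37 (adjusted p = 0.0363) with rFGF1ΔHBS, and Csf1r fell, with -1.32 (adjusted p = 0.0114) and -1.19 (adjusted p = 0.0140). Kirrel rose with rFGF1WT, by 1.24 (adjusted p = 0.0483), beside 0.88 (adjusted p = 0.0899) with rFGF1ΔHBS. With rFGF1ΔHBS the largest change of a tested podocyte marker was 1.65, in a gene other than Kirrel, and 0 of 6 passed. Synpo and Podxl were lower in all FGF1 libraries than in HG without passing the test, at -0.94 (adjusted p = 0.0787) and -0.69 (adjusted p = 0.131) for Synpo. The part of these markers in the results below was not tested.

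FPKM are scaled for transcript length, so levels can be set side by side between genes. Scd2, a stearoyl-CoA desaturase that puts the first double bond into saturated fatty acids, had the highest mean over the 6 libraries at 636 FPKM. It was followed by Fads2, the delta-6 desaturase of polyunsaturated fatty acids (253 FPKM), Hmgcs1, HMG-CoA synthase of the mevalonate pathway (157 FPKM), and Srebf2 (143 FPKM). The export side stood at the other end, where Abca1, Abcg1 and Nr1h3 reached at most 0.198, 0.0488 and 0.0662 FPKM in any library, and Acacb at most 0.663 FPKM. Summed over the 40 genes, the level was 2237 to 2258 FPKM in HG, 2644 to 2765 with rFGF1WT and 2843 to 2942 with rFGF1ΔHBS.

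**Figure D1:**
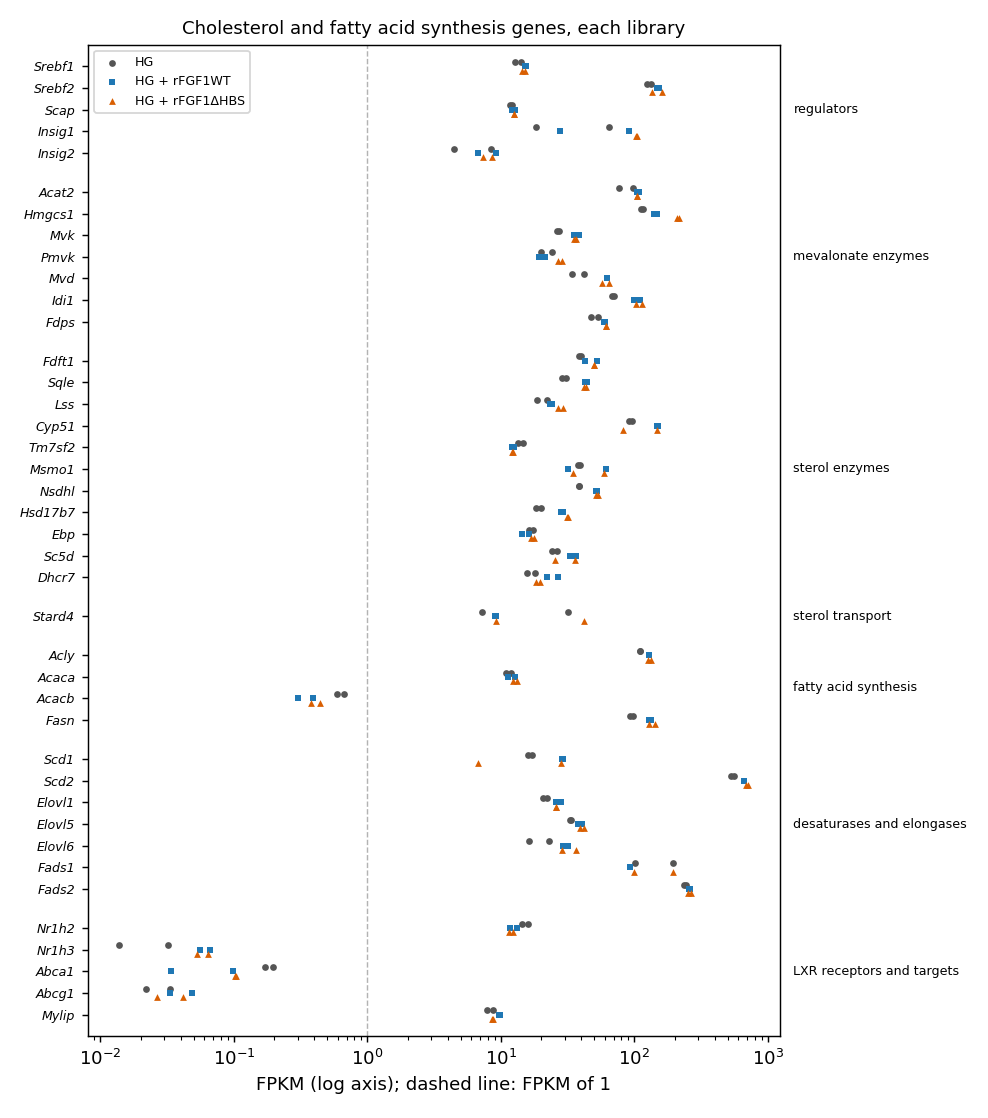
FPKM of each of the 40 genes (log axis) in the 6 libraries, grouped by role, with circles for HG, squares for HG with rFGF1WT and triangles for HG with rFGF1ΔHBS. Scd2 is highest, at 533 to 713 FPKM, and Acacb, Nr1h3, Abca1 and Abcg1 lie left of the dashed line at 1 FPKM.

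Both FGF1 proteins were followed by higher levels of part of the pathway. With rFGF1WT, 9 of the 36 tested genes rose (25%, against 3.26% of all loci) and 0 fell (against 2.94%). The 9 were Hmgcs1, Mvk, Mvd, Idi1, Sqle, Nsdhl, Hsd17b7, Fasn and Scd2, with log2 fold changes from 0.27 to 0.70. Of the 36 genes, 0 also passed the 2-fold limit (1.01% of loci did). In 26 of the 36 (72.2%, against 24.1% of loci) both rFGF1WT libraries were above both HG libraries, and in 3 (8.33%, against 34.1%) both were below. The median log2 fold change over the 36 was 0.27, beside -0.04 over all loci, and 30 were positive. At an unadjusted p under 0.05 the limma fit held 17 genes higher and 2 lower, together 52.8% of the 36 beside 24.8% of loci.

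With rFGF1ΔHBS, 8 of the 36 rose (22.2%, against 3.37% of all loci) and 0 fell (against 2.89%): Hmgcs1, Mvk, Idi1, Sqle, Nsdhl, Hsd17b7, Fasn and Scd2, with log2 fold changes from 0.35 to 0.89. Of the 36, 0 passed the 2-fold limit as well (0.899% of loci did). Both rFGF1ΔHBS libraries were above both HG libraries in 25 genes (69.4%, against 24.4%) and below in 2 (5.56%, against 32.9%). The median was 0.28, beside -0.04 over all loci, and 32 genes were positive. At an unadjusted p under 0.05 there were 18 genes higher and 2 lower, together 55.6% beside 24.9% of loci. The comparisons use the same HG libraries and are not independent of each other. Changes of single genes below are log2 fold changes against HG on the log2(FPKM + 1) scale, given first for rFGF1WT and then for rFGF1ΔHBS.

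Those counts rest on all 6 libraries in 1 limma fit with 3 residual degrees of freedom. Without either HG library or either rFGF1WT library, 0 genes passed against HG with rFGF1WT, and without either rFGF1ΔHBS library 2 did (Cyp51 and Scd1, which are not among the 9). With rFGF1ΔHBS, Hmgcs1 passed in every fit that left out 1 library. It was alone without either HG library, without rFGF1WT replicate 2 and without rFGF1ΔHBS replicate 1, was joined by Hsd17b7 without rFGF1WT replicate 1, and by Scd1, there lower, without rFGF1ΔHBS replicate 2. A fit of all 24469 loci with no filter held 3 genes (Sqle, Nsdhl and Hsd17b7) with rFGF1WT and 4 (the same and Hmgcs1) with rFGF1ΔHBS.

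**Figure D2:**
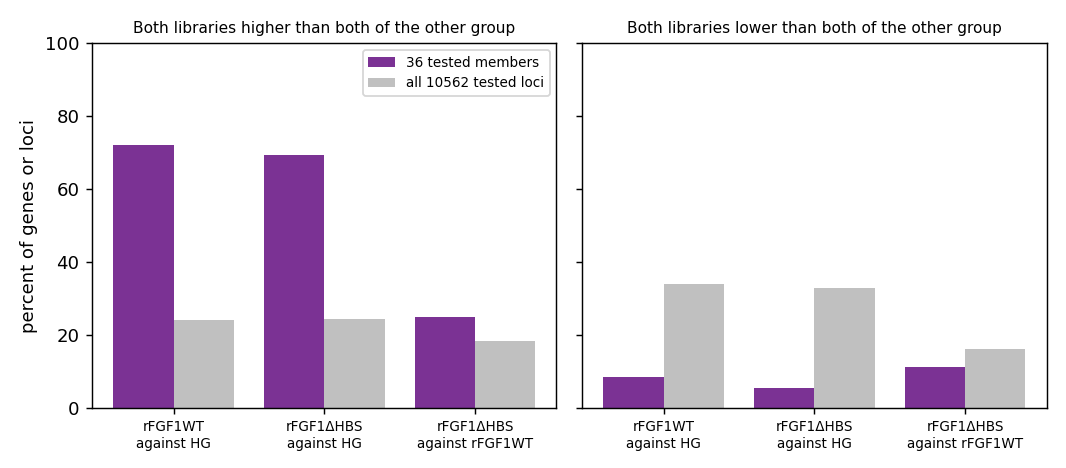
Bars give the percent of the 36 tested genes (purple) and of all 10562 tested loci (grey) in which both libraries of the first group lie above (left) or below (right) both of the second, for the 3 comparisons. Against HG, 72.2% and 69.4% of the genes lie apart on the higher side, beside 24.1% and 24.4% of loci, and between the proteins 25% beside 18.4%.

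**Figure D3:**
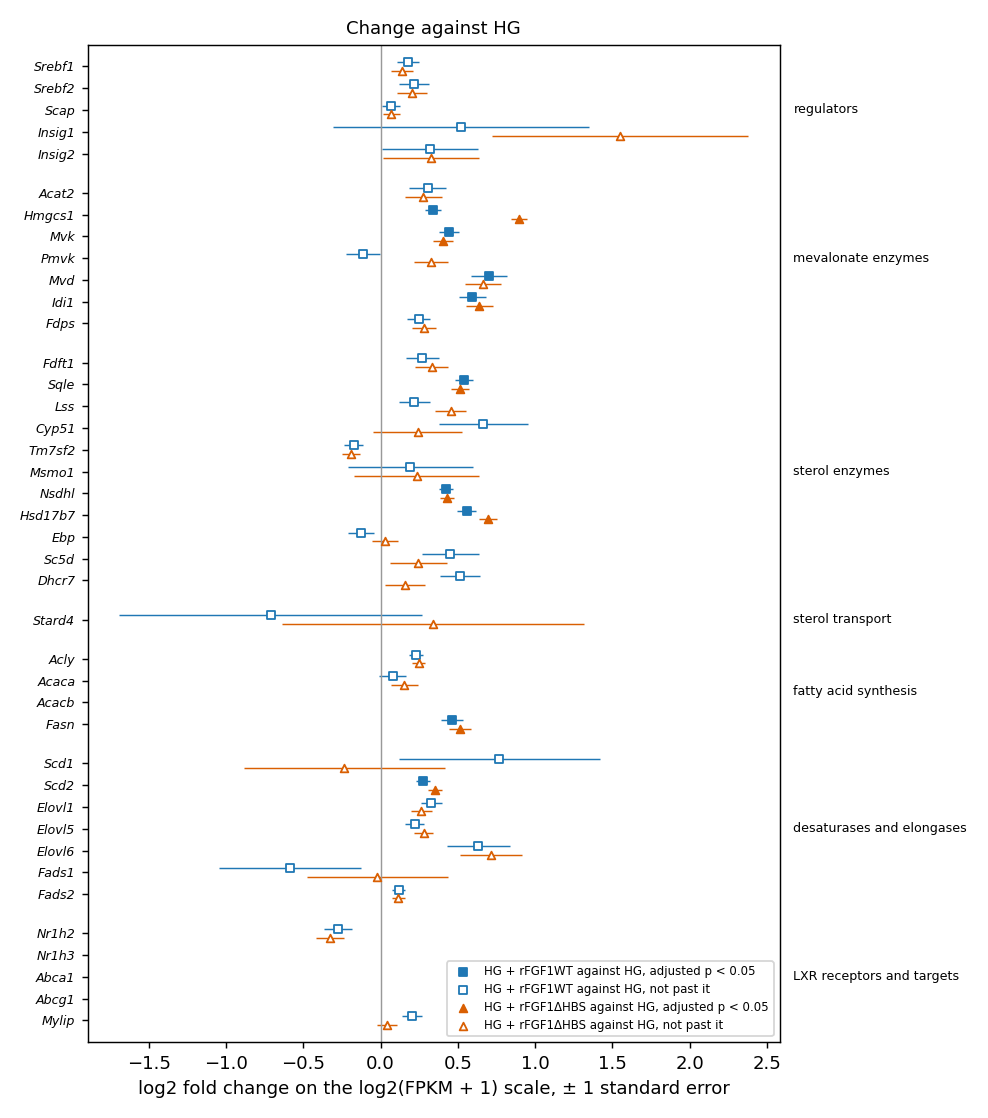
Log2 fold change against HG on the log2(FPKM + 1) scale, with bars of 1 standard error, for each tested gene with rFGF1WT (squares) and rFGF1ΔHBS (triangles), filled where the adjusted p was under 0.05. Filled points lie between 0.27 and 0.89, and the long bars belong to genes whose replicates differ.

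Of the 5 regulators 0 passed the test with either protein, against 3.26% and 3.37% of all loci that rose. Their medians were 0.22 and 0.20, beside -0.04 over all loci. Both treated libraries were above both HG libraries in 3 with rFGF1WT and in 4 with rFGF1ΔHBS, against 24.1% and 24.4% of loci. At an unadjusted p under 0.05 in limma there were 0 of 5 with each, against 24.8% and 24.9% of all loci. Srebf2, which encodes the SREBP that mainly drives cholesterol genes, was 124 and 134 FPKM in HG, 152 and 148 with rFGF1WT, and 136 and 161 with rFGF1ΔHBS. Its libraries with rFGF1WT or rFGF1ΔHBS were all above the HG libraries, by a log2 fold change of 0.22 with rFGF1WT (adjusted p = 0.268) and 0.20 with rFGF1ΔHBS (adjusted p = 0.301). Srebf1, whose product mainly drives fatty acid genes, was at 12.7 to 15.5 FPKM over the libraries, with changes of 0.18 with rFGF1WT (adjusted p = 0.218) and 0.14 with rFGF1ΔHBS (adjusted p = 0.321). Scap, the sterol-sensing escort, was 11.6 and 12.1 FPKM in HG and at 12.2 to 12.8 FPKM with the proteins. The groups did not overlap HG, by small changes of 0.07 (adjusted p = 0.505) and 0.07 (adjusted p = 0.501).

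Insig1, a sterol-responsive gene whose product retains SCAP in the endoplasmic reticulum, was 64.9 and 18.4 FPKM in HG, 27.6 and 91.5 with rFGF1WT, and 105 and 102 with rFGF1ΔHBS. One library each of HG and rFGF1WT was high and the other low, and only the rFGF1ΔHBS pair was uniformly high, so the HG and rFGF1WT groups overlapped. The changes were 0.52 with rFGF1WT (adjusted p = 0.738) and 1.55 with rFGF1ΔHBS (adjusted p = 0.341), with standard errors of 0.828. Insig2 was 8.40 and 4.43 FPKM in HG, 9.17 and 6.79 with rFGF1WT, and 8.63 and 7.35 with rFGF1ΔHBS, with overlapping groups and changes of 0.32 (adjusted p = 0.574) and 0.33 (adjusted p = 0.567).

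In the mevalonate pathway 4 of 7 genes rose with rFGF1WT and 3 of 7 with rFGF1ΔHBS, against 3.26% and 3.37% of all loci, with medians of 0.34 and 0.40. In 6 and 7 of the 7 both treated libraries were above both HG libraries, against 24.1% and 24.4% of loci. Hmgcs1, the synthase that makes HMG-CoA, was 116 and 112 FPKM in HG, 140.0 and 149 with rFGF1WT, and 216 and 209 with rFGF1ΔHBS. The 3 groups did not overlap, with HG lowest and rFGF1ΔHBS highest. The means were 114 ± 2.83 in HG, 144 ± 6.27 with rFGF1WT and 212 ± 4.50 with rFGF1ΔHBS (SD, n = 2), a ratio to HG of 1.27 with rFGF1WT and 1.87 with rFGF1ΔHBS. Its log2 fold changes against HG were 0.34 (SE 0.0514, adjusted p = 0.0411) and 0.89 (SE 0.0514, adjusted p = 0.00881).

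Mvk, mevalonate kinase, was 27.3 and 26.5 FPKM in HG, 38.7 and 35.2 with rFGF1WT, and 35.1 and 36.7 with rFGF1ΔHBS. All 4 FGF1 libraries lay above the HG pair, and the FGF1 groups overlapped each other. The means were 26.9 ± 0.544 in HG, 36.9 ± 2.44 with rFGF1WT and 35.9 ± 1.10 with rFGF1ΔHBS (SD, n = 2), and the log2 fold changes were 0.44 (SE 0.0659, adjusted p = 0.0404) with rFGF1WT and 0.40 (adjusted p = 0.0475) with rFGF1ΔHBS. Pmvk, which adds the next phosphate, was 24.0 and 20.0 FPKM in HG, 21.3 and 19.2 with rFGF1WT, and 26.9 and 28.6 with rFGF1ΔHBS. Its rFGF1WT libraries overlapped HG and its rFGF1ΔHBS libraries were above, with changes of -0.11 (adjusted p = 0.572) and 0.32 (adjusted p = 0.173).

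Mvd, the decarboxylase that yields isopentenyl diphosphate, was 41.9 and 34.3 FPKM in HG, 62.1 and 62.6 with rFGF1WT, and 57.3 and 64.2 with rFGF1ΔHBS. Both HG libraries were below all 4 others. The means were 38.1 ± 5.34 in HG, 62.4 ± 0.365 with rFGF1WT and 60.8 ± 4.85 with rFGF1ΔHBS (SD, n = 2), and the change was 0.70 (SE 0.116, adjusted p = 0.0486) with rFGF1WT and 0.66 (adjusted p = 0.0531) with rFGF1ΔHBS, just outside the threshold. Idi1, which isomerizes isopentenyl diphosphate, was 70.4 and 68.2 FPKM in HG, 111 and 99.5 with rFGF1WT, and 115 and 102 with rFGF1ΔHBS. Its HG pair was again below the rest, the means were 69.3 ± 1.56 in HG, 105 ± 8.13 with rFGF1WT and 109 ± 8.98 with rFGF1ΔHBS (SD, n = 2), and the changes were 0.59 (SE 0.0873, adjusted p = 0.0393) and 0.64 (adjusted p = 0.0334).

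Acat2, the cytosolic thiolase of the first step, was 97.0 and 76.6 FPKM in HG, 105 and 109 with rFGF1WT, and 105 and 104 with rFGF1ΔHBS, with changes of 0.30 with rFGF1WT (adjusted p = 0.222) and 0.28 with rFGF1ΔHBS (adjusted p = 0.259). Fdps, farnesyl diphosphate synthase, was 53.8 and 47.2 FPKM in HG, 60.8 and 59.3 with rFGF1WT, and 61.3 and 61.8 with rFGF1ΔHBS. Its FGF1 libraries were all above HG, but neither change of 0.25 (adjusted p = 0.147) and 0.28 (adjusted p = 0.113) passed.

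In the sterol branch, from squalene to cholesterol, 3 of 11 genes rose with rFGF1WT and the same number with rFGF1ΔHBS (against 3.26% and 3.37% of all loci), with medians of 0.42 and 0.24. Both treated libraries were above both HG libraries in 8 genes with rFGF1WT and in 6 with rFGF1ΔHBS (against 24.1% and 24.4%). Sqle, squalene epoxidase and a rate-limiting enzyme, was 30.6 and 28.6 FPKM in HG, 44.4 and 42.4 with rFGF1WT, and 42.1 and 43.3 with rFGF1ΔHBS. All FGF1 libraries were above HG and the FGF1 groups overlapped. The means were 29.6 ± 1.38 in HG, 43.4 ± 1.40 with rFGF1WT and 42.7 ± 0.858 with rFGF1ΔHBS (SD, n = 2), and the changes were 0.54 (SE 0.0577, adjusted p = 0.0214) and 0.51 (adjusted p = 0.0226).

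Nsdhl and Hsd17b7 encode the dehydrogenase and the reductase that act together in removing methyl groups from the sterol ring. Nsdhl was 38.7 and 38.4 FPKM in HG, 51.7 and 52.5 with rFGF1WT, and 53.2 and 51.4 with rFGF1ΔHBS. Its HG pair lay below the 4 others, whose values overlapped between the proteins. The means were 38.6 ± 0.203 in HG, 52.1 ± 0.550 with rFGF1WT and 52.3 ± 1.27 with rFGF1ΔHBS (SD, n = 2), and the changes were 0.42 (SE 0.0442, adjusted p = 0.0205) and 0.43 (adjusted p = 0.0206). Hsd17b7 was 18.5 and 20.0 FPKM in HG, 29.4 and 28.1 with rFGF1WT, and 31.9 and 31.5 with rFGF1ΔHBS. Its 3 groups did not overlap, in the order HG, rFGF1WT, rFGF1ΔHBS. The means were 19.2 ± 1.03 in HG, 28.8 ± 0.923 with rFGF1WT and 31.7 ± 0.273 with rFGF1ΔHBS (SD, n = 2), and the changes were 0.56 (SE 0.0601, adjusted p = 0.0215) and 0.70 (adjusted p = 0.0164). Msmo1, the oxidase of the same step, was 39.2 and 38.2 FPKM in HG, 31.9 and 61.4 with rFGF1WT, and 34.9 and 59.5 with rFGF1ΔHBS, with 1 low and 1 high library under each protein and changes of 0.19 (adjusted p = 0.805) and 0.23 (adjusted p = 0.766).

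Cyp51, lanosterol demethylase, was 91.5 and 95.9 FPKM in HG, 149.9 and 148 with rFGF1WT, and 82.7 and 149 with rFGF1ΔHBS. Of the 4 FGF1 libraries 3 were at 148 to 149.9 FPKM and rFGF1ΔHBS replicate 1 was below HG, and the changes were 0.66 (adjusted p = 0.254) and 0.24 (adjusted p = 0.649). Fdft1, squalene synthase, was at 38.7 to 40.04 FPKM in HG and at 43.1 to 52.8 FPKM with the proteins, with changes of 0.27 with rFGF1WT (adjusted p = 0.220) and 0.33 with rFGF1ΔHBS (adjusted p = 0.158). Lss, lanosterol synthase, was 18.6 and 22.1 FPKM in HG, 23.3 and 24.3 with rFGF1WT, and 27.0 and 29.4 with rFGF1ΔHBS, with groups that did not overlap and changes of 0.22 (adjusted p = 0.277) and 0.46 (adjusted p = 0.0830).

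The remaining genes of the sterol branch did not pass the test. Sc5d, a sterol desaturase, was 24.2 and 26.4 FPKM in HG, 33.2 and 36.8 with rFGF1WT, and 36.0 and 25.2 with rFGF1ΔHBS, with changes of 0.45 (adjusted p = 0.230) and 0.24 (adjusted p = 0.476). Dhcr7, the reductase that can give cholesterol itself, was 18.1 and 15.6 FPKM in HG, 22.1 and 27.0 with rFGF1WT, and 18.3 and 19.5 with rFGF1ΔHBS. Both rFGF1WT libraries were above the other 4, and the changes were 0.52 (adjusted p = 0.103) and 0.16 (adjusted p = 0.499). Ebp, a sterol isomerase, was at 14.3 to 17.6 FPKM with changes of -0.13 and 0.03. Tm7sf2, a sterol reductase, was 13.5 and 14.6 FPKM in HG, 12.5 and 12.2 with rFGF1WT, and 12.2 and 12.3 with rFGF1ΔHBS, so that all FGF1 libraries lay below HG, with changes of -0.17 (adjusted p = 0.182) and -0.19 (adjusted p = 0.155). Stard4, a cytosolic carrier of cholesterol, was 7.25 and 32.0 FPKM in HG, 9.02 and 9.17 with rFGF1WT, and 9.13 and 42.0 with rFGF1ΔHBS. HG replicate 2 and rFGF1ΔHBS replicate 2 stood well above the other 4 libraries, and the changes were -0.71 (adjusted p = 0.697) and 0.34 (adjusted p = 0.872).

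Of the fatty acid synthesis genes 1 of 3 tested rose with each protein (against 3.26% and 3.37% of all loci), with medians of 0.23 and 0.25. Fasn, fatty acid synthase, was 97.0 and 92.3 FPKM in HG, 128 and 133 with rFGF1WT, and 128 and 143 with rFGF1ΔHBS. Its HG pair was below all FGF1 libraries, which overlapped each other. The means were 94.6 ± 3.34 in HG, 131 ± 3.32 with rFGF1WT and 136 ± 10.7 with rFGF1ΔHBS (SD, n = 2), and the changes were 0.46 (SE 0.0715, adjusted p = 0.0433) and 0.51 (adjusted p = 0.0344). Acly, which makes cytosolic acetyl-CoA from citrate, was 109.7 and 109.5 FPKM in HG, 128 and 129 with rFGF1WT, and 134 and 127 with rFGF1ΔHBS. It too had no overlap with HG, and the changes, 0.23 (adjusted p = 0.0645) and 0.25 (adjusted p = 0.0549), lay just outside the threshold. Acaca, the cytosolic acetyl-CoA carboxylase, was at 10.8 to 13.1 FPKM with changes of 0.08 and 0.15. Its mitochondrial counterpart Acacb, not tested, was 0.589 and 0.663 FPKM in HG, 0.390 and 0.301 with rFGF1WT, and 0.438 and 0.378 with rFGF1ΔHBS, lower in each FGF1 library than in HG.

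Among the 7 desaturases and elongases 1 rose with each protein (against the same shares of loci), with medians of 0.27 and 0.26. Scd2 was 561 and 533 FPKM in HG, 659 and 664 with rFGF1WT, and 684 and 713 with rFGF1ΔHBS. The 3 groups did not overlap and the replicates were close to each other. The means were 547 ± 20.2 in HG, 662 ± 3.51 with rFGF1WT and 698 ± 20.6 with rFGF1ΔHBS (SD, n = 2), and the changes were 0.27 (SE 0.0450, adjusted p = 0.0479) and 0.35 (adjusted p = 0.0292). Its paralog Scd1 was 17.1 and 16.1 FPKM in HG, 28.5 and 29.4 with rFGF1WT, and 6.71 and 28.1 with rFGF1ΔHBS. In that gene rFGF1ΔHBS replicate 1 was lowest of all while rFGF1ΔHBS replicate 2 was as high as the rFGF1WT pair, and the changes were 0.77 (adjusted p = 0.521) and -0.23 (adjusted p = 0.866).

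Elovl6, which lengthens palmitate to stearate, was 16.3 and 23.0 FPKM in HG, 29.2 and 32.1 with rFGF1WT, and 36.4 and 28.9 with rFGF1ΔHBS, above HG in all FGF1 libraries, with changes of 0.63 (adjusted p = 0.160) and 0.71 (adjusted p = 0.127). Elovl1, which acts on very long chains, was at 20.6 to 22.3 FPKM in HG and at 25.8 to 28.2 FPKM with the proteins, and its changes were 0.33 (adjusted p = 0.0772) and 0.26 (adjusted p = 0.108). Elovl5, which acts on polyunsaturated chains, was at 32.9 to 33.7 and at 37.8 to 42.2 FPKM, with changes of 0.22 (adjusted p = 0.135) and 0.28 (adjusted p = 0.0880). Fads2 was 237 and 242 FPKM in HG, 258 and 262 with rFGF1WT, and 254 and 265 with rFGF1ΔHBS. Its FGF1 libraries were above HG by small changes of 0.12 (adjusted p = 0.188) and 0.12 (adjusted p = 0.197). Fads1, the delta-5 desaturase, was 101 and 196 FPKM in HG, 93.0 and 93.6 with rFGF1WT, and 194 and 99.1 with rFGF1ΔHBS, where 1 HG and 1 rFGF1ΔHBS library were high, with changes of -0.59 (adjusted p = 0.489) and -0.02 (adjusted p = 0.990).

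**Figure D4:**
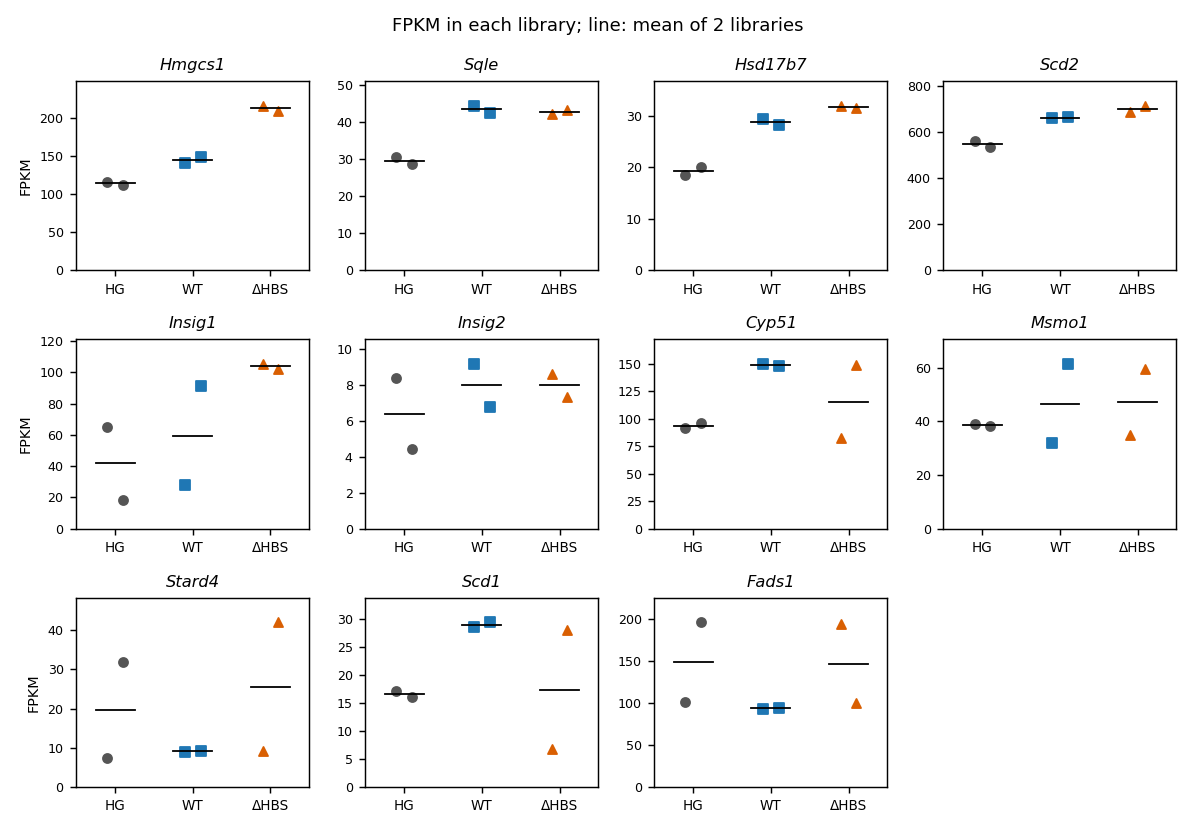
FPKM in each library (linear axes from 0, the line marking the mean of 2) for 4 genes that rose with both proteins and, in the lower panels, the 7 genes whose replicates differ by more than 1.5 times in at least 1 group. Hmgcs1, Hsd17b7 and Scd2 step up from HG to rFGF1WT to rFGF1ΔHBS without overlap, whereas in Stard4 the pairs of HG and rFGF1ΔHBS are split.

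Among LXR receptors and targets 0 of the 2 tested genes passed with either protein. At an unadjusted p under 0.05 in limma there were 2 with rFGF1WT and 1 with rFGF1ΔHBS, against 24.8% and 24.9% of all loci. Nr1h2, LXR beta, was 14.4 and 16.0 FPKM in HG, 11.7 and 13.1 with rFGF1WT, and 11.5 and 12.4 with rFGF1ΔHBS, lower in all FGF1 libraries than in HG, with changes of -0.28 (adjusted p = 0.169) and -0.32 (adjusted p = 0.125). Mylip, an LXR target and ubiquitin ligase that acts on lipoprotein receptors, was 8.73 and 7.94 FPKM in HG, 9.89 and 9.61 with rFGF1WT, and 8.51 and 8.68 with rFGF1ΔHBS with changes of 0.20 (adjusted p = 0.164) and 0.04 (adjusted p = 0.750). The cholesterol exporter Abca1 was 0.198 and 0.170 FPKM in HG, 0.0987 and 0.0340 with rFGF1WT, and 0.102 and 0.104 with rFGF1ΔHBS. It was lower in all FGF1 libraries than in HG, at levels too low to be tested. Abcg1, another exporter, was 0.0331 and 0.0220 FPKM in HG, 0.0330 and 0.0488 with rFGF1WT, and 0.0415 and 0.0267 with rFGF1ΔHBS, and Nr1h3, LXR alpha, was 0.0318 and 0.0139 FPKM in HG, 0.0556 and 0.0662 with rFGF1WT, and 0.0533 and 0.0638 with rFGF1ΔHBS. Without counts, the error of such low values is unknown.

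A total of 7 of the 36 tested genes (19.4%, against 25% of loci) had replicates that differed by more than 1.5 times in at least 1 group. These were Insig1 (3.52 times in HG), Insig2 (1.90 times in HG), Cyp51 (1.80 times with rFGF1ΔHBS), Msmo1 (1.92 times with rFGF1WT), Stard4 (4.61 times with rFGF1ΔHBS), Scd1 (4.18 times with rFGF1ΔHBS) and Fads1 (1.95 times with rFGF1ΔHBS), each value being the largest ratio in any group. No single library held all of these gaps. Within its pair, rFGF1ΔHBS replicate 1 was low in Cyp51, Msmo1, Scd1 and Stard4 and high in Fads1, and HG replicate 2 was low in Insig1 and Insig2 and high in Stard4 and Fads1. Over the other 29 tested genes, a set chosen after seeing the data, the medians were 0.27 and 0.28.

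The proteins were then set against each other at the same dose and time. Of the 36 genes 1 was higher with rFGF1ΔHBS than with rFGF1WT (2.78%, against 0.294% of loci) and 0 were lower (against 0.256%). At an unadjusted p under 0.05 in limma 2 were higher and 1 lower, together 8.33% beside 4.87% of loci. Both rFGF1ΔHBS libraries were above both rFGF1WT libraries in 9 genes (25%, against 18.4%) and below in 4 (11.1%, against 16.1%). The median log2 difference was 0.01, beside 0.01 over all loci. The gene was Hmgcs1, whose rFGF1ΔHBS libraries (216 and 209 FPKM) were both above its rFGF1WT libraries (140.0 and 149 FPKM), 1.47 times in the means, with a log2 difference of 0.55 (95% interval 0.42 to 0.69, adjusted p = 0.0480). Without any 1 of the 6 libraries Hmgcs1 did not pass, with the adjusted p of all alternatives between 0.0464 and 0.235. Without rFGF1ΔHBS replicate 2 the only gene past the threshold was Scd1, there lower with rFGF1ΔHBS.

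For the other genes that rose against HG the proteins were not told apart, and the intervals bound the log2 difference of rFGF1ΔHBS from rFGF1WT. They were -0.22 to 0.14 for Mvk, -0.35 to 0.27 for Mvd, -0.19 to 0.28 for Idi1 and -0.18 to 0.13 for Sqle. Those of Nsdhl (-0.11 to 0.12), Hsd17b7 (-0.02 to 0.30), Fasn (-0.14 to 0.24) and Scd2 (-0.04 to 0.20) also included 0. Pmvk (0.14 to 0.73, adjusted p = 0.686) and Dhcr7 (-0.70 to -0.01, adjusted p = 0.905) had intervals without 0 but did not pass after adjustment. In Insig1 the interval was -1.20 to 3.25, too wide to say in which direction the proteins differ.

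Genes around the pathway were read from lists beside it. Of 15 tested genes of SREBP processing and turnover (site proteases, ubiquitin ligases and coat proteins) 0 passed with either protein, with medians of -0.02 and -0.05, and 4 had an unadjusted p under 0.05 with each protein in limma (against 24.8% and 24.9% of all loci). Of 10 genes of the prenyl and dolichol branch, which use the same isoprenoids, 0 passed with either, with medians of 0.09 and 0.16, and 3 had an unadjusted p under 0.05 with each, against the same shares.

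Of 21 tested genes that supply or activate fatty acids 4 rose and 1 fell with each protein (against 3.26% and 3.37% of loci that rose and 2.94% and 2.89% that fell), with medians of 0.08 and 0.09. Hsd17b12, the reductase of the elongation cycle, was 27.2 and 26.8 FPKM in HG, 51.1 and 51.0 with rFGF1WT, and 48.7 and 44.4 with rFGF1ΔHBS, a change of 0.89 with rFGF1WT (adjusted p = 0.0114) and 0.76 with rFGF1ΔHBS (adjusted p = 0.0150). Acsl5, an acyl-CoA synthetase, was 28.3 and 28.1 FPKM in HG, 46.1 and 43.8 with rFGF1WT, and 43.9 and 44.1 with rFGF1ΔHBS, a change of 0.66 with rFGF1WT (adjusted p = 0.0126) and 0.63 with rFGF1ΔHBS (adjusted p = 0.0142). Aacs, which feeds ketone bodies into sterol and fatty acid synthesis, was 32.1 and 37.4 FPKM in HG, 57.3 and 58.6 with rFGF1WT, and 58.4 and 54.9 with rFGF1ΔHBS. All its FGF1 libraries were above HG, with changes of 0.72 (adjusted p = 0.0258) and 0.69 (adjusted p = 0.0294). Slc27a1, a fatty acid transport protein, fell, from 8.44 and 9.37 FPKM in HG to 5.11 to 5.83 FPKM with the proteins, with changes of -0.56 (adjusted p = 0.0306) and -0.67 (adjusted p = 0.0225).

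Of 21 tested genes of sterol uptake, storage and export 1 rose and 1 fell with each protein (against the same shares), with medians of -0.14 and -0.20. In limma, 2 were higher and 8 lower with rFGF1WT at an unadjusted p under 0.05, and 3 higher and 8 lower with rFGF1ΔHBS. Of all loci, 24.8% and 24.9% passed in either direction. Both treated libraries were below both HG libraries in 11 and 12 genes (against 34.1% and 32.9% of loci). They were above in 5 with each protein (against 24.1% and 24.4%). Lrp8, a lipoprotein receptor, was 0.963 and 1.04 FPKM in HG, 3.32 and 3.70 with rFGF1WT, and 3.80 and 3.89 with rFGF1ΔHBS, and its changes were 1.17 (adjusted p = 0.0114) and 1.28 (adjusted p = 0.0111). Nr1h4, the bile acid receptor FXR, fell, from 9.52 and 10.2 FPKM in HG to 7.04 and 6.28 with rFGF1WT and 6.04 and 5.61 with rFGF1ΔHBS, with changes of -0.50 (adjusted p = 0.0482) and -0.67 (adjusted p = 0.0270).

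**Figure D5:**
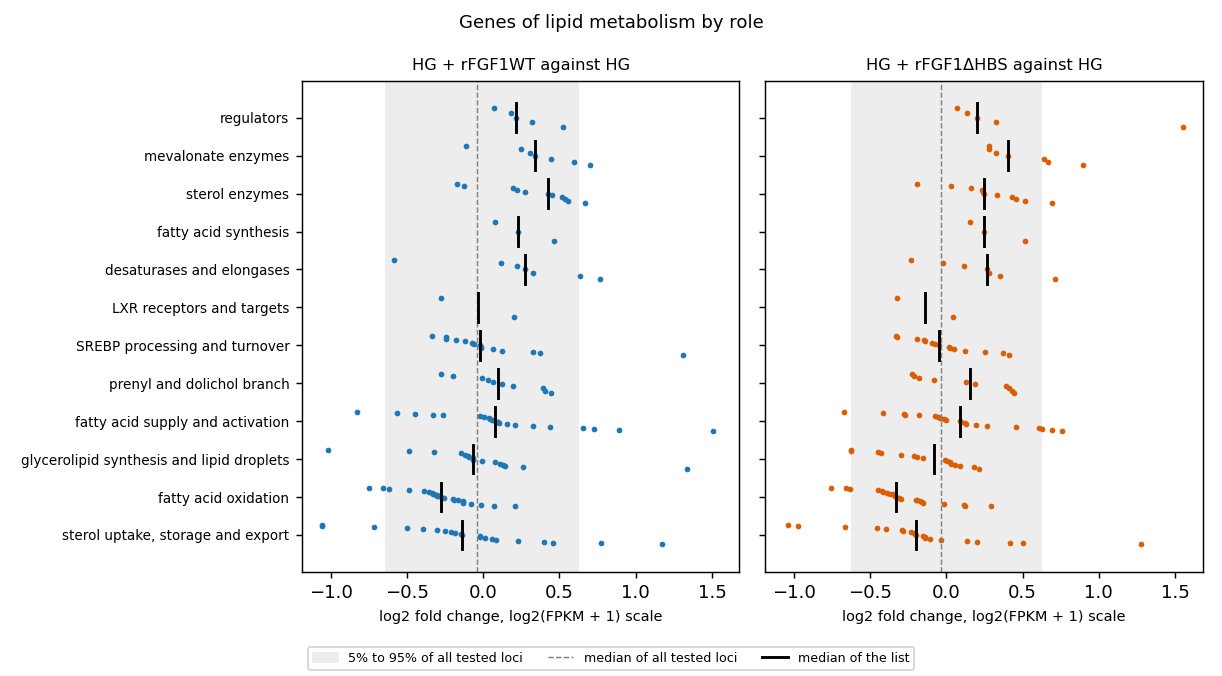
Each point is the log2 fold change of a tested gene against HG (left rFGF1WT, right rFGF1ΔHBS), grouped by role, with a black bar at the median of the list, a dashed line at the median of all tested loci and a grey band from their 5% to 95% values. The mevalonate list has medians of 0.34 and 0.40, whereas fatty acid oxidation lies at -0.28 and -0.33.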

How the data were processed

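Poly(A) mRNA of MPCs was made into 6 libraries (3 groups of 2), which were sequenced in paired ends, and the authors deposited FPKM per assembled locus, a value scaled for transcript length and library size. The submitters' processing notes list Bowtie 0.12.2, HISAT2 2.0, StringTie 1.3.0 and the build mm8, whereas the table holds Ensembl identifiers and no coordinates. Positions were therefore read from GENCODE M21 (GRCm38). Groups and replicate numbers came from the sample labels. Depth is unknown, and FPKM allow no counting interval.

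Loci with a mean of at least 1 FPKM over the 6 libraries (10562 of 24469) were fitted as log2(FPKM + 1) with limma 3.58.1 in R 4.3.3 (lmFit, contrasts, eBayes with a trend, two-sided) in 1 fit of all groups. P-values were adjusted by Benjamini-Hochberg over all tested loci, and a gene was said to rise or fall at an adjusted p under 0.05. Fold changes are on the log2(FPKM + 1) scale, which understates those of low genes. The limits of the study's methods, q under 0.05 and 2-fold, were counted beside it. Standard deviations are of 2 libraries, and an exact permutation test of 2 against 2 libraries could not go below 0.333. The fit was tested on simulated data with the same spread at every locus, so that test does not cover loci whose replicates differ.

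The 40 members and the other 12 lists (SREBP processing and turnover, prenyl and dolichol branch, fatty acid supply and activation, glycerolipid synthesis and lipid droplets, fatty acid oxidation, sterol uptake, storage and export, FGF-ERK response genes, and podocyte, endothelial, proximal tubule, macrophage, and adipocyte and hepatocyte markers) were chosen with earlier results of these data known, so lists were described by counts and medians and not tested. All members were named. Values in every library were given for members past the threshold, the 4 with the highest mean and those not tested, and further library values were added after they were seen. Of the other lists, genes past the threshold were named, at most 4 per list. Single values of some markers are not reported here. Alternatives were another pseudocount (0.1), filter (none, or a mean of 5), scaling (median ratio, quantile), a replicate block, robust empirical Bayes, a fit of the 4 libraries compared alone, summed rows, the 2-fold limit and leaving out each library. Figures were drawn with matplotlib 3.10.9 in Python 3.11.15.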

Additional observations from a re-analysis of the deposited data

Results flagged for a closer look

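Among the 36 genes tested, Hmgcs1 was the one whose level differed between the proteins by the test of the difference itself. It was 116 and 112 FPKM in HG, 140.0 and 149 with rFGF1WT, and 216 and 209 with rFGF1ΔHBS, and the log2 difference of rFGF1ΔHBS from rFGF1WT was 0.55, with an adjusted p of 0.0480 in limma. Both rFGF1ΔHBS libraries were above both rFGF1WT libraries. The call held in 3 of 15 alternatives, with a log2 difference between 0.51 and 0.60 in all 15. Of the 3, the fit with summed rows repeats the main fit, because every symbol had 1 row. The others were the pseudocount of 0.1 and quantile normalization. Groups of 2 libraries were not examined for single outlying values.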

How the results depend on the processing

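The counts of genes past the threshold depended on the fit, and the medians less so. With rFGF1WT against HG the count of 9 became 3 with no filter, 5 with quantile normalization, 2 in the 4 libraries compared and 0 with the 2-fold limit, and with rFGF1ΔHBS the count of 8 became 4 with no filter, 2 in the 4 libraries compared and 0 with the 2-fold limit. Between the proteins, the 1 gene (Hmgcs1) became 0 with no filter, a mean of at least 5 FPKM, median-ratio scaling, the 4 libraries compared, robust empirical Bayes or the 2-fold limit. Leaving out 1 library left 0 to 2 genes with rFGF1WT, 1 to 2 with rFGF1ΔHBS and 0 to 1 between the proteins. These fits have 2 residual degrees of freedom, and the 4 libraries compared have 2. With no filter 24469 loci entered the adjustment. In the other cases the cause was not tested.

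With the replicate number as a block, 0 genes passed in each of the comparisons (17, 18 and 3 at an unadjusted p under 0.05 in limma, beside 19, 20 and 3 without the block). Across tested loci, correlations of same-numbered deviations from the group means were near 0, at -0.0212, 0.098 and -0.0467 for the 3 pairs of groups. The labels do not say whether same-numbered libraries were handled together, and correlations from 2 libraries per group cannot settle it.

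The median with rFGF1WT against HG was 0.27 and moved to 0.33 under median-ratio scaling, where the median of all loci was 0.01, and the other medians moved by less than the spread between libraries. No gene past the threshold turned its direction under these alternatives, although Scd2 with rFGF1WT had a log2 fold change of 0.00 under quantile normalization. The over 1.5-fold replicate gaps and the 2 libraries per group limit what can be told of single genes.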

Other observations

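Fatty acid oxidation, the route that breaks down fatty acids, lay lower in the FGF1 libraries. The summed FPKM of 27 genes of mitochondrial and peroxisomal oxidation were 388 to 395 in HG, 319 to 329 with rFGF1WT and 315 to 318 with rFGF1ΔHBS. Of 23 tested genes 2 fell with each protein (against 2.94% and 2.89% of loci) and 0 rose, with medians of -0.28 and -0.33 beside -0.04 over all loci. At an unadjusted p under 0.05 in limma, 10 were lower with rFGF1WT and 13 with rFGF1ΔHBS, and 0 were higher with either, where 24.8% and 24.9% of loci passed in either direction. Both rFGF1WT libraries were below both HG libraries in 16 of the 23 and above in 1, and both rFGF1ΔHBS libraries were below in 19 and above in 1 (against 34.1% and 32.9% of loci below, and 24.1% and 24.4% above). Acadm, the medium-chain acyl-CoA dehydrogenase, was 26.7 and 27.5 FPKM in HG, 16.9 and 16.7 with rFGF1WT, and 17.2 and 16.4 with rFGF1ΔHBS, with changes of -0.66 (adjusted p = 0.0134) and -0.66 (adjusted p = 0.0143). Etfdh, which passes the electrons of these dehydrogenases to ubiquinone, was 11.7 and 12.4 FPKM in HG, 8.73 and 9.22 with rFGF1WT, and 9.19 and 8.75 with rFGF1ΔHBS, with changes of -0.39 (adjusted p = 0.0483) and -0.39 (adjusted p = 0.0477).

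Of 16 tested genes of glycerolipid synthesis and lipid droplets 1 passed the test with rFGF1WT (against 3.26% of loci that rose). With rFGF1ΔHBS 0 passed (against 3.37% of loci that rose and 2.89% that fell). At an unadjusted p under 0.05 in limma, 2 of the 16 were higher and 2 lower with rFGF1WT, and 0 higher and 4 lower with rFGF1ΔHBS. These counts were near the shares of all loci, 24.8% and 24.9% in either direction. Between the proteins, 4 were lower with rFGF1ΔHBS and 0 higher, against 4.87% of loci. Both rFGF1ΔHBS libraries were below both rFGF1WT libraries in 7 (43.8%, against 16.1%) and above in 3 (18.8%, against 18.4%). The gene that passed with rFGF1WT was Hilpda, a hypoxia-inducible lipid droplet protein, at 0.678 and 0.522 FPKM in HG, 3.35 and 2.73 with rFGF1WT, and 0.787 and 0.615 with rFGF1ΔHBS. Both rFGF1WT libraries were above the other 4. Hilpda was below 1 FPKM in the other groups and reached the filter only through the rFGF1WT libraries, so its passing against HG is no independent support. The log2 difference of rFGF1ΔHBS from rFGF1WT was -1.25 and did not pass (adjusted p = 0.0685). The medians of the list were -0.07 and -0.08.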
